A study of Mus musculus with 9 samples.

Results

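Interferon-stimulated genes are the genes a cell switches on when interferon reaches it, and the interferon-inducible GTPases are a large branch of them. A panel of 42 such genes was followed in group 2 innate lymphoid cells (ILC2s) of the mouse pancreas. The members were chosen by name from a list of 9 guanylate-binding proteins, 1 giant interferon-inducible GTPase, 7 immunity-related GTPases, 16 antiviral effectors, 5 nucleic acid sensors and editors, and 4 regulators. All 42 were found among the 20732 genes of the count table.

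The samples were ILC2s from C57BL6/J mice that had received either PBS (the controls, 4 libraries, also labelled naive) or IL-33 (5 libraries). The dose was 200 ng of IL-33, given on day 0 and again on day 1, and pancreata were taken on day 5. No gene was altered in either group. Sorted cells were live CD45+ cells without CD3, B220 or lineage markers and with KLRG1, a receptor carried by many tissue ILC2s. The sample labels give 4 PBS and 5 IL-33 libraries, whereas the design text gives 5 and 4 mice; the sample labels were used throughout. No label says that libraries came from separate mice, so the p-values measure the spread between libraries.

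Type I interferons bind IFNAR1 with IFNAR2, and interferon gamma binds IFNGR1 with IFNGR2. The type I receptor acts through a complex that holds STAT2 and IRF9 at the interferon-stimulated response element (ISRE), and the interferon gamma receptor acts at the gamma-activated site (GAS). The GTPases gather on vacuoles that hold intracellular pathogens, and other members block steps of viral replication or sense viral nucleic acid. IL-33 is an alarmin that activates ILC2s through its receptor ST2, the product of Il1rl1, and interferons are known to restrain ILC2 activity.

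The libraries held between 14216976 and 21020023 counts. Levels are given as CPM, counts scaled by the library total and the trimmed mean of M-values, and levels of different genes are compared only per kilobase of exon. Among 10 ILC2 markers, mean Gata3 was 4509 CPM with PBS and 4025 CPM with IL-33. Mean Klrg1, whose product was used in the sort, was 708 and 1428 CPM. With IL-33, 3 of the 10 were called higher (Klrg1, Il5 and Il13) and 3 lower (Il7r, Il2ra and Icos). These are 30% each, against 13.7% higher and 11.6% lower of all genes tested. In PBS replicate 4 the genes of pancreatic acinar enzymes held 35.4% of counts, against 0.111% to 6.41% in the other PBS libraries and 0.313% to 10.3% with IL-33. The scaling factor of that library was 0.53, and those of the other libraries lay between 0.99 and 1.17. RNA came from a sorted pool, in which fewer cells of a type and less RNA per cell cannot be told apart.

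Of the 42 members, 39 had enough counts to be tested. With IL-33, 13 members fell and 1 rose, and 25 did not pass the test (edgeR quasi-likelihood test, Benjamini-Hochberg adjusted p below 0.05 over 14405 genes). Among all genes tested, 25.2% passed, 13.7% as higher and 11.6% as lower. The members thus fell in 33.3% of cases and rose in 2.56%. They were chosen with earlier results of these data known, so this comparison is a description and not a test. The median log2 change of the 39 members was -0.93, and that of all genes tested was -0.05. The change was negative in 34 members and positive in 5. GTPases made up 9 of the 13 members that fell: among the 17 GTPases the median was -1.38, and among the 22 other members tested it was -0.64. With scaling by library size alone, which leaves the acinar share of PBS replicate 4 in the total, 6 members were called lower (Gbp6, Gbp8, Gvin1, Samd9l, Tgtp1 and Tgtp2). Without IL-33 replicates 1, 2 and 3, whose erythroid marker shares were the highest, 4 were called lower (Gbp7, Gvin1, Samd9l and Tgtp1). Over all genes tested, the share called in either direction was 13.7% with library size alone and 9.06% without those 3 libraries.

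**Figure D1:**
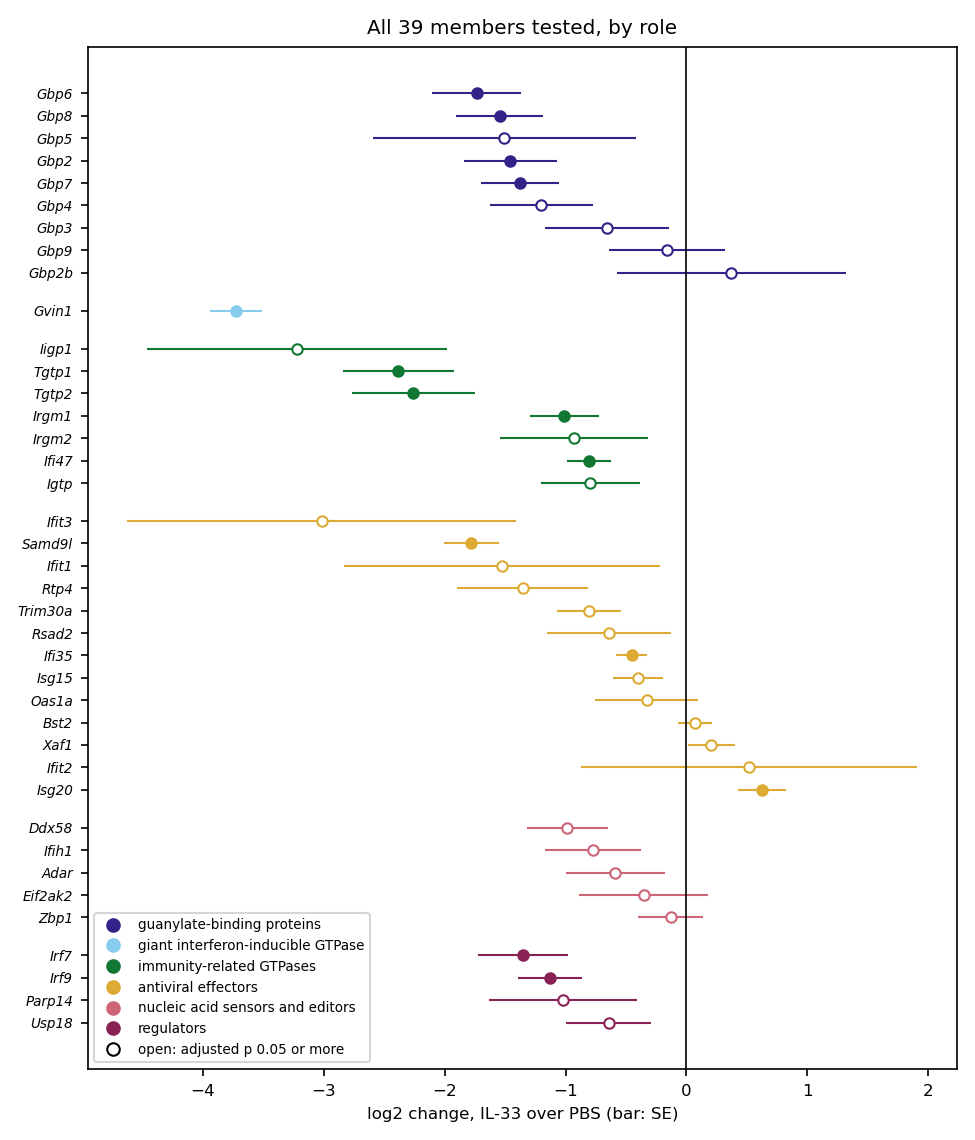
Log2 change with IL-33 over PBS (horizontal axis, with SE bars) of the 39 members tested, grouped and coloured by role; filled points have adjusted p below 0.05. The point of Gvin1 lies farthest to the left at -3.72, and of the filled points only Isg20 lies to the right of 0, at 0.62.

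The promoter stretches in which interferon motifs lie are shown for 8 members, because they set the strongest-falling immunity-related GTPases beside members that moved less or rose. RefSeq promoter windows (GRCm38.p6, 250 bases before to 50 after a start site) matched 31 of the 42 members, with 39 windows in all. Gbp4, Gbp6, Gbp8, Gbp9, Gvin1, Iigp1, Mx1, Rtp4, Zbp1, Usp18 and Parp14 had no window. Each window was searched on both strands for the ISRE core GAAANNGAAA and the GAS core TTCNNNGAA, whose matches are in capitals in the stretches below; overlapping matches form one run, and a minus-strand ISRE match reads TTTCNNTTTC. All are written 5′ to 3′ on the strand of the gene and end before its RefSeq start site.
Tgtp1, chr11:48992295-48992354, minus strand: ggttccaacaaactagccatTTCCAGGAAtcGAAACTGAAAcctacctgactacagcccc
Tgtp2, chr11:49064254-49064313, minus strand: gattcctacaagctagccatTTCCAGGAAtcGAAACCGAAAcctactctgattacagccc
Irgm2, chr11:58214882-58214941, plus strand: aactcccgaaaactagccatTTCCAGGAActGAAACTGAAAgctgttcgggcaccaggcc
Igtp, chr11:58199491-58199550, plus strand: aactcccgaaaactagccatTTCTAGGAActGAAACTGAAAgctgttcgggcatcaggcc
Irgm1, chr11:48871421-48871480, minus strand: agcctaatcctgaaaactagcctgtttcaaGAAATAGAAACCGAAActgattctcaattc
Gbp7, chr3:142530226-142530305, plus strand: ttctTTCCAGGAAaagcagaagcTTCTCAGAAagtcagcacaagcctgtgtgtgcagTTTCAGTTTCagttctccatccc
Isg15, chr4:156200857-156200916, minus strand: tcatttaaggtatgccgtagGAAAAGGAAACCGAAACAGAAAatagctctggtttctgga
Isg20, chr7:78913331-78913390, plus strand: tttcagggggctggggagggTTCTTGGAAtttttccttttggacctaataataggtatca

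In the GENCODE annotation the stretches of Tgtp1 and Irgm2 lie in introns of longer transcripts of the same genes, those of Tgtp1 and Tgtp2 lie in introns of Olfr56 on the other strand, and that of Irgm1 lies in an exon of a noncoding Irgm1 transcript. The other stretches overlap no annotated gene. The ISRE core was in 21 of the 39 member windows (53.9%), against 3.44% of all 32851 windows of that length. The GAS core was in 13 member windows (33.3%), against 8.30% of all windows. Immunity-related GTPases held the ISRE core in 5 of 6 windows and the GAS core in 4 of 6. Guanylate-binding proteins held them in 5 and 2 of 6 windows, and the regulators in 0 of 3.

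Tgtp1, Tgtp2, Igtp and Irgm2 carry a GAS core followed by an ISRE core whose first base lies 11 bases further on. That spacing, chosen after the matches were seen, was found in 5 of the 32851 windows (0.0152%), all on chromosome 11. The remaining window belongs to Gm12185, which is not a member and shares 100-base stretches of transcript with Tgtp1 and Tgtp2. These are related genes with related sequence, so the 5 windows are not independent. Tgtp1 and Tgtp2 passed the test and Igtp and Irgm2 did not, so genes with the same pair of motifs lie on both sides of the threshold. Members without an ISRE match in any window included Ifi47, Samd9l, Ifi35, Irf7 and Irf9, all of which fell, and Isg20, which rose. A match is a run of letters and not a measured binding site.

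**Figure D2:**
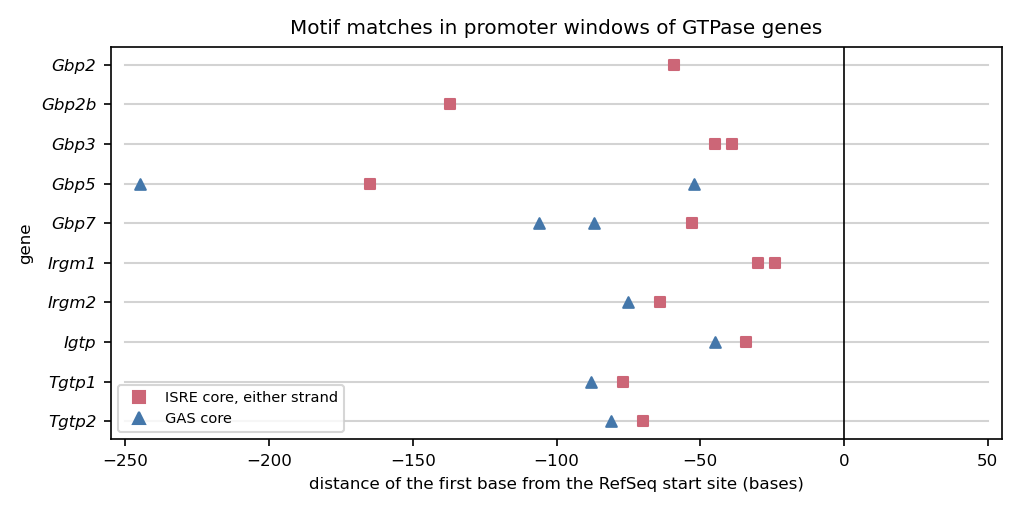
Position of the first base of each ISRE core (squares) and GAS core (triangles) match relative to the RefSeq start site (horizontal axis, bases) in GTPase genes that hold a match. In Tgtp1, Tgtp2, Igtp and Irgm2 a triangle sits 11 bases before a square.

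The giant interferon-inducible GTPase Gvin1 (chr7:106156556-106215326, minus strand) showed the lowest log2 change of the panel. Gvin1 stood at 276, 284, 191 and 206 CPM in PBS replicates 1 to 4, and at 21.8, 11.9, 17.6, 22.0 and 17.5 CPM in IL-33 replicates 1 to 5. Every PBS library was far above every IL-33 library, and the spread within each group was small. Gvin1 fell by 3.72 ± 0.21 on the log2 scale (SE, edgeR adjusted p = 1.15e-05), and its mean was 240 ± 47.3 CPM over the 4 PBS libraries and 18.1 ± 4.13 CPM over the 5 IL-33 libraries (SD), which is 13.2-fold lower. Of its 100-base transcript stretches 97.8% also occur in other genes, 96.7% in Gm4070, so that short reads can hardly be assigned to one of the pair. Gm4070 fell from 236 to 18.4 CPM, a log2 change of -3.69, and is named for that shared sequence. The value given for Gvin1 may therefore hold reads of both genes.

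Immunity-related GTPases are interferon-induced GTPases that load onto pathogen vacuoles, and the Irgm proteins regulate the others. All 7 were tested: 4 fell, none rose, all 7 changes were negative, and the median log2 change was -1.01. The share lower was 57.1%, against 11.6% of all genes tested. Tgtp1 and Tgtp2, neighbours on chromosome 11 (chr11:48985327-48994172 and chr11:49057194-49064206, both on the minus strand), fell most among those that passed. Tgtp1 was at 256, 135, 98.2 and 75.2 CPM with PBS and at 14.6, 19.7, 55.2, 25.9 and 20.03 CPM with IL-33. Its groups did not overlap, although PBS replicate 1 stood well above PBS replicate 4 and IL-33 replicate 3 stood above the other IL-33 libraries. The log2 change was -2.38 ± 0.46 (SE, edgeR adjusted p = 0.00502), a 5.21-fold lower mean.

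Tgtp2 was at 295, 146, 107 and 67.7 CPM with PBS and at 16.8, 21.5, 70.1, 26.6 and 25.9 CPM with IL-33. Its libraries followed those of Tgtp1, and its groups overlapped by a single pair, IL-33 replicate 3 over PBS replicate 4. Tgtp2 fell by 2.26 ± 0.51 on the log2 scale (SE, edgeR adjusted p = 0.0106). The transcripts share 70.3% of the 100-base stretches of Tgtp1 and 76.8% of those of Tgtp2, so that the division of reads between them is uncertain.

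Ifi47, a further GTPase of the same family, was at 128, 80.0, 81.6 and 65.9 CPM with PBS and at 50.6, 45.4, 51.9, 52.2 and 54.2 CPM with IL-33. The IL-33 libraries lay close together and below every PBS library. Ifi47 fell by 0.81 ± 0.18 on the log2 scale (SE, edgeR adjusted p = 0.0111). Irgm1, the regulator that guards the host's own membranes, was at 61.1, 55.8, 24.5 and 59.0 CPM with PBS and at 32.3, 23.7, 29.5, 18.6 and 20.4 CPM with IL-33. PBS replicate 3 lay among the IL-33 libraries, while the other 3 PBS libraries were above all of them. Irgm1 fell by 1.01 ± 0.29 on the log2 scale (SE, edgeR adjusted p = 0.0283). Its adjusted p lay between 0.0587 and 0.0783 when PBS replicate 1, 2 or 4 or one of IL-33 replicates 2, 4 and 5 was left out.

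The other immunity-related GTPases did not pass. Iigp1 was at 6.94, 6.14, 16.1 and 8.19 CPM with PBS and at 0, 0.534, 3.48, 0.951 and 0 CPM with IL-33. Its groups did not overlap, and its log2 change was -3.22 with an edgeR adjusted p of 0.0868; without IL-33 replicate 3 the adjusted p was 0.0299. Igtp (log2 change -0.80, adjusted p = 0.188) passed only without IL-33 replicate 3, with an edgeR adjusted p of 0.0404. Irgm2 changed by -0.93 with an edgeR adjusted p of 0.2998, and its PBS values ran from 3.05 to 19.4 CPM.

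Guanylate-binding proteins coat pathogen vacuoles and bacteria and help to activate inflammasomes. All 9 were tested: Gbp2, Gbp6, Gbp7 and Gbp8 fell, none rose, and the median log2 change was -1.38. The share lower was 44.4%, against 11.6% of all genes tested. Gbp7 had the highest mean level per kilobase of the family with PBS, 34.4 CPM per kilobase. It was at 242, 226, 187 and 118 CPM with PBS and at 65.5, 49.5, 135, 51.0 and 70.7 CPM with IL-33. Only IL-33 replicate 3 exceeded the lowest PBS library. Gbp7 fell by 1.38 ± 0.32 on the log2 scale (SE, edgeR adjusted p = 0.0125), a 2.60-fold lower mean.

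Gbp2 was at 122, 71.2, 62.6 and 68.4 CPM with PBS and at 19.0, 17.3, 57.5, 19.9 and 33.9 CPM with IL-33. The groups did not overlap, with PBS replicate 1 high in its group and IL-33 replicate 3 high in the other. Gbp2 fell by 1.46 ± 0.38 on the log2 scale (SE, edgeR adjusted p = 0.0211), and the adjusted p was 0.0651 without PBS replicate 1. Gbp6 was at 29.6, 22.6, 11.6 and 14.6 CPM with PBS and at 3.64, 7.06, 4.09, 5.71 and 8.95 CPM with IL-33. All 4 PBS libraries were above all 5 IL-33 libraries, and IL-33 replicate 3 was not the highest of its group here. Gbp6 fell by 1.73 ± 0.37 on the log2 scale (SE, edgeR adjusted p = 0.00797). Its transcripts share 64.5% of their 100-base stretches with other genes, mainly Gm43302 and Gbp10.

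Gbp8 was at 79.9, 71.7, 33.6 and 38.0 CPM with PBS and at 13.7, 13.3, 34.0, 18.2 and 16.4 CPM with IL-33. IL-33 replicate 3 again exceeded the lowest PBS library, and the other 4 IL-33 libraries lay below all PBS libraries. Gbp8 fell by 1.54 ± 0.36 on the log2 scale (SE, edgeR adjusted p = 0.0124). The 5 guanylate-binding proteins that did not pass had log2 changes between -1.51 (Gbp5) and 0.37 (Gbp2b) and edgeR adjusted p between 0.0646 (Gbp4) and 0.835 (Gbp9). Gbp4 passed without PBS replicate 3 or without IL-33 replicate 3, with an edgeR adjusted p as low as 0.0399. Gbp9 was at 44.6, 22.99, 14.6 and 9.90 CPM with PBS and at 14.7, 13.5, 40.7, 15.7 and 18.6 CPM with IL-33, so that the groups covered the same range although its neighbour Gbp8 fell.

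**Figure D3:**
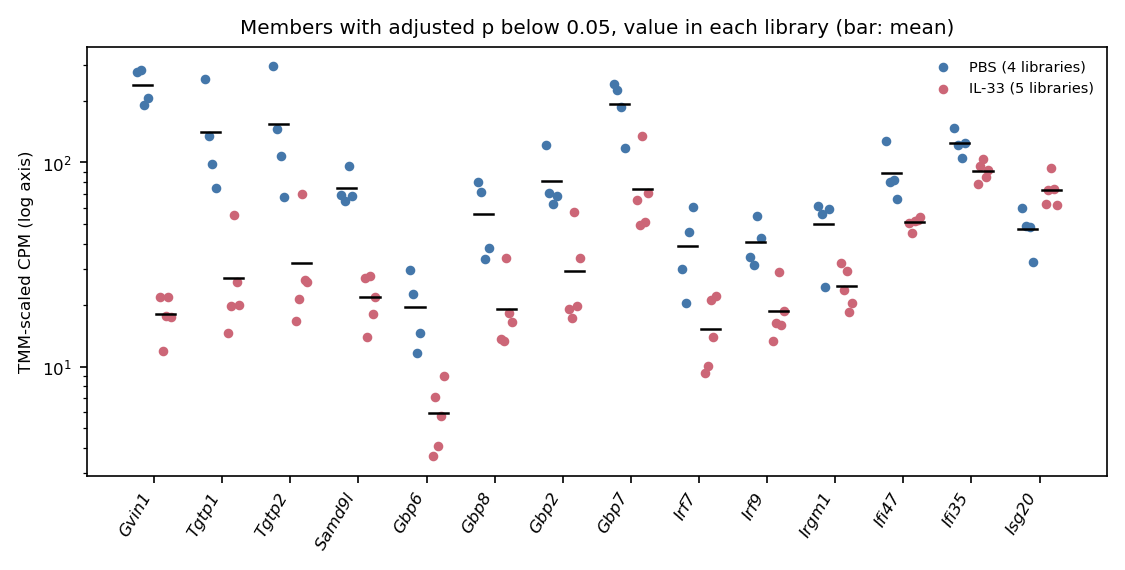
CPM (vertical axis, log scale) in each of the 4 PBS and 5 IL-33 libraries for the 14 members with adjusted p below 0.05; bars mark group means. Gvin1 shows the widest gap, and Isg20 is the only member whose IL-33 libraries lie higher.

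Antiviral effectors act directly on viral RNA, proteins or membranes. Of 13 tested, Samd9l and Ifi35 fell, Isg20 rose and 10 did not pass, with a median log2 change of -0.45. The shares called, 15.4% lower and 7.69% higher, lay near the 11.6% and 13.7% of all genes tested. Samd9l, which restricts poxviruses and lowers translation, was at 69.6, 64.8, 96.4 and 68.4 CPM with PBS and at 27.2, 13.99, 27.9, 18.1 and 21.9 CPM with IL-33. The groups were well separated, and PBS replicate 3 was the highest. Samd9l fell by 1.78 ± 0.23 on the log2 scale (SE, edgeR adjusted p = 6.73e-04), a 3.43-fold lower mean. Ifi35, an interferon-induced leucine zipper protein, was at 147, 121, 105 and 125 CPM with PBS and at 78.6, 95.8, 104, 85.0 and 91.7 CPM with IL-33. The gap between the groups was very narrow. Ifi35 fell by 0.45 ± 0.13 on the log2 scale (SE, edgeR adjusted p = 0.0292), and its adjusted p lay between 0.0508 and 0.0831 without PBS replicate 1 or 2 or one of IL-33 replicates 1, 2, 4 and 5.

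Isg20, an exonuclease that degrades single-stranded RNA, moved the other way. It was at 59.9, 48.6, 48.5 and 32.7 CPM with PBS and at 62.7, 73.2, 94.2, 74.0 and 61.7 CPM with IL-33. Every IL-33 library was above every PBS library, PBS replicate 1 coming close. Isg20 rose by 0.62 ± 0.20 on the log2 scale (SE, edgeR adjusted p = 0.0432), a 1.54-fold higher mean. That call was lost when any one library other than PBS replicate 1 was left out (edgeR adjusted p from 0.0523 to 0.0890). Isg20 moved from 11th to 3rd of the 42 members by mean level per kilobase, at 25.5 with PBS and 39.3 CPM per kilobase with IL-33.

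Bst2, also called tetherin, which holds budding virions at the cell surface, had the highest mean level per kilobase in both groups. Bst2 was at 97.3, 75.4, 96.3 and 101 CPM with PBS and at 80.8, 101, 95.0, 118 and 92.0 CPM with IL-33. The groups covered the same range, and the log2 change was 0.07 ± 0.14 (SE, edgeR adjusted p = 0.740). Isg15, a ubiquitin-like modifier, was at 39.4, 23.7, 28.8 and 31.3 CPM with PBS and at 16.1, 24.9, 25.96, 23.3 and 26.7 CPM with IL-33. Its groups overlapped, and its log2 change was -0.40 ± 0.21 (SE, edgeR adjusted p = 0.194).

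Ifit1, Ifit2 and Ifit3, which bind viral RNA, were low and uneven. Ifit1 was at 8.87, 0.0602, 16.2 and 1.14 CPM with PBS and at 3.26, 2.85, 3.07, 0 and 2.26 CPM with IL-33. The highest and nearly the lowest values were both in PBS libraries, and no Ifit gene passed the test. The other effectors that did not pass had log2 changes from -1.35 (Rtp4) to 0.20 (Xaf1). Trim30a (log2 change -0.80) had an edgeR adjusted p of 0.0519 and passed without PBS replicate 3 or IL-33 replicate 1, with an edgeR adjusted p as low as 0.0257. Rtp4, at an edgeR adjusted p of 0.0954, passed without PBS replicate 3, at 0.0326.

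Mx1, Oasl2 and Ifi44 had too few counts to be tested. Mx1, the myxovirus resistance GTPase that is not functional in many inbred mouse strains, had 1 count in PBS replicate 1 and 43 in IL-33 replicate 5, and at most 1 in the other libraries. Oasl2 had 133 and 104 counts in PBS replicates 1 and 3, 4 in IL-33 replicate 1 and 0 elsewhere. Ifi44 had 34 counts in PBS replicate 4, 6 in IL-33 replicate 3, 30 in IL-33 replicate 5 and 0 elsewhere. The counts of each gene came from 1 or a few libraries.

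Nucleic acid sensors and editors recognise or modify foreign RNA and DNA. All 5 were tested and none passed, with log2 changes from -0.99 (Ddx58) to -0.13 (Zbp1). At an unadjusted p below 0.05 there was 1, and DESeq2 and limma voom each called 1, Ddx58. Ddx58, which encodes the RNA sensor RIG-I, was at 78.3, 54.9, 59.2 and 39.7 CPM with PBS and at 31.5, 11.7, 44.3, 29.6 and 29.3 CPM with IL-33. Only IL-33 replicate 3 reached the PBS range. Its edgeR adjusted p was 0.0560, and it passed without PBS replicate 4 or IL-33 replicate 3, with an edgeR adjusted p as low as 0.0335.

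Zbp1, a sensor of Z-form nucleic acid, was at 53.3, 22.6, 49.9 and 30.1 CPM with PBS and at 28.7, 28.6, 42.6, 37.7 and 40.5 CPM with IL-33. Eif2ak2, the RNA-activated kinase PKR, was at 9.99, 7.82, 30.2 and 6.47 CPM with PBS and at 8.99, 12.0, 3.67, 14.03 and 14.7 CPM with IL-33. Both genes had overlapping groups, and PBS replicate 3 stood apart for Eif2ak2.

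Among the regulators, Irf7 and Irf9 fell (50%, against 11.6% of all genes tested), and Usp18 and Parp14 did not pass. Irf9, the DNA-binding partner of STAT2, was at 34.6, 31.3, 54.7 and 42.7 CPM with PBS and at 13.3, 16.3, 29.1, 16.0 and 18.7 CPM with IL-33. The groups did not overlap, with PBS replicate 3 and IL-33 replicate 3 highest. Irf9 fell by 1.13 ± 0.26 on the log2 scale (SE, edgeR adjusted p = 0.0120). Irf7, the factor that amplifies type I interferon production, was at 30.0, 20.5, 45.7 and 60.3 CPM with PBS and at 9.32, 10.1, 21.1, 13.9 and 22.2 CPM with IL-33. PBS replicate 2 lay within the IL-33 range, and the other PBS libraries lay above it. Irf7 fell by 1.35 ± 0.37 on the log2 scale (SE, edgeR adjusted p = 0.0263), and its adjusted p was 0.0544 to 0.0634 without PBS replicate 3 or 4 or one of IL-33 replicates 1, 2 and 4. Usp18, the protease that removes ISG15 and dampens IFNAR2, was at 49.0, 25.6, 39.8 and 37.1 CPM with PBS and at 10.6, 33.8, 31.9, 15.4 and 29.6 CPM with IL-33. Its groups overlapped, and its log2 change was -0.64 (edgeR adjusted p = 0.214).

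The order of the members by mean level per kilobase differed little from one neighbour to the next. With PBS it began with Bst2 at 102, Ifi35 at 72.0, Tgtp2 at 52.4, Tgtp1 at 44.1 and Isg15 at 40.8 CPM per kilobase. With PBS none of the 41 pairs of neighbours in that order was separated in all libraries. With IL-33 1 of the 41 pairs was, Bst2 over Ifi35. Gvin1 moved from 10th with PBS, at 26.6, to 27th with IL-33, at 2.02 CPM per kilobase. Of the 39 members tested, 10 had groups that did not overlap, against 26.1% of all genes tested in either direction. The 9 that were lower with IL-33 were 23.1% of the members, against 10.8% of all genes tested. Only 1 member was higher, against 15.3% of all genes tested.

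Within each group, many members were highest in the same library. Of the 38 members with a mean of at least 1 CPM, 27 were highest among PBS libraries in replicate 1, and 22 were highest among IL-33 libraries in replicate 3. These are 71.1% and 57.9% of the members, where 24.7% and 23.6% of all 13700 genes at that level were highest in the same libraries. Summed over all members, PBS replicate 1 had 2828 CPM and the other PBS libraries 1654 to 1927 CPM. IL-33 replicate 3 had 1337 CPM and the other IL-33 libraries 828 to 953 CPM. The lowest PBS sum, that of PBS replicate 4, was thus above the highest IL-33 sum. That value rests on the scaling factor of 0.53 of this library, in which acinar genes held 35.4% of counts. The pattern was clearest in the GTPases: PBS replicate 1 was highest for 7 of 8 guanylate-binding proteins and 6 of 7 immunity-related GTPases, and IL-33 replicate 3 for 7 of 8 and 5 of 7. Gvin1 did not follow it, its highest libraries being PBS replicate 2 and IL-33 replicate 4.

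**Figure D4:**
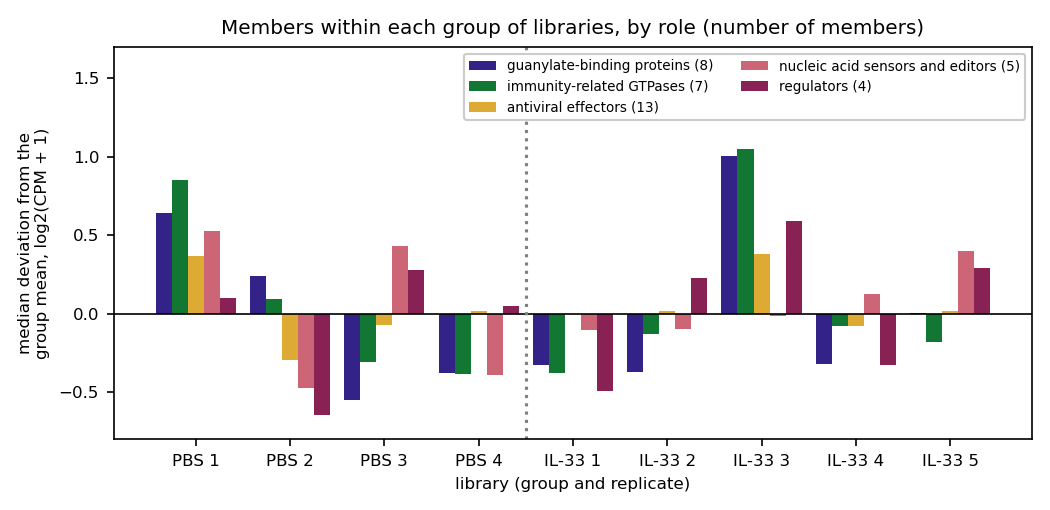
Median deviation of the members from their group mean (vertical axis, log2 of CPM plus 1) in each library, with bars coloured by role and the number of members in brackets. In PBS replicate 1 and IL-33 replicate 3 the bars of the guanylate-binding proteins (0.64 and 1.01) and of the immunity-related GTPases (0.85 and 1.05) stand above those of the other libraries of their group.

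Markers of other cells were read beside these values. IL-33 replicate 3, in which many GTPases were highest, also had the highest share in its group of endothelial marker counts, 0.00932% against 0.00366% to 0.00599% in the other IL-33 libraries. Most endothelial counts with IL-33 were of Pecam1 (32.3 mean CPM). Kdr (0.261), Cdh5 (0.199), Ptprb (0.363) and Tek (0.307 mean CPM) were very low. IL-33 replicate 3 did not lead its group in acinar, fibroblast or dendritic cell marker counts. PBS replicate 1, in which most members were highest, had an endothelial share of 0.0148%. That lay below 0.0204% in PBS replicate 3 and 0.0199% in PBS replicate 4. IL-33 replicate 3 led its group in erythroid (0.365%), macrophage and monocyte (0.197%), B cell (0.0417%), mast cell, basophil and eosinophil (0.0390%) and T cell (0.0356%) marker counts. Most macrophage and monocyte counts were of Ccr2, which ILC2s express, at a mean of 1418 CPM with IL-33. B cell counts were mostly of Ighm (156 mean CPM) and T cell counts mostly of Cd3g (281 mean CPM). Each of these 3 shares thus rests mainly on 1 gene and does not show how many such cells were present. Endothelial cells, which can express many of the GTPases, and fibroblasts lack CD45, which the sort required. The sort did not remove all RNA of other cells. Acinar enzyme genes held 0.111% to 35.4% of counts in PBS libraries and 0.313% to 10.3% in IL-33 libraries. All 10 endothelial markers had lower means with IL-33, and of these Kdr and Ptprb fell. Their summed level was 60.8 to 374 CPM in PBS libraries and 31.8 to 91.0 CPM in IL-33 libraries. No endothelial marker was at 0 in both groups. Of 8 fibroblast markers 4 were tested, all with negative changes and a median log2 change of -2.72, and Mmp2 (66.9 to 1.696 mean CPM) and Col1a2 (6.78 to 0.310) fell. The 8 markers summed to 55.3 to 105 CPM with PBS and 1.42 to 12.0 CPM with IL-33, without overlap, and Lum was at 0 in the IL-33 mean. Most of the mean PBS sum was Mmp2. Col1a1 (0.762 to 0.472 mean CPM), Col3a1 (2.96 to 2.24) and Dcn (2.03 to 0.976) were low in both groups. Dpt, also low, had the higher mean with IL-33 (0.0885 to 0.318). The summed level of 9 macrophage and monocyte markers (without Ccr2, which ILC2s express) was 12.6 to 27.9 CPM with PBS and 6.90 to 65.8 CPM with IL-33, with C1qa at 0 in the PBS mean. The 4 dendritic cell markers besides Bst2 summed to 20.8 to 57.9 CPM and 48.5 to 85.6 CPM, with Cd209a at 0 in the IL-33 mean. The part of these cells in the members' changes was not tested.

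The receptors and signalling genes around the members were read next. Of 21 interferon genes listed as ligands only Ifnz was in the table analysed, at 0.134 and 0.130 mean CPM, and it was not tested; Ifng, Ifnb1 and the interferon alpha genes were not analysed here. Of 5 receptor genes tested, 4 (80%) fell, against 11.6% of all genes tested, and all 5 changes were negative. Ifnar1, a chain of the type I receptor, was at 308, 261, 257 and 226 CPM with PBS and at 123, 89.5, 160, 162 and 120 CPM with IL-33. All PBS libraries were above all IL-33 libraries. Ifnar1 fell by 1.01 ± 0.18 on the log2 scale (SE, edgeR adjusted p = 0.00346).

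Ifnar2, the partner chain, was at 42.8, 66.3, 43.8 and 82.6 CPM with PBS and at 31.5, 28.9, 22.2, 29.9 and 30.6 CPM with IL-33. Ifngr2, a chain of the interferon gamma receptor, was at 127, 122, 128 and 128 CPM with PBS and at 87.1, 40.6, 79.6, 89.4 and 63.7 CPM with IL-33. Neither gene had overlapping groups. Ifnar2 fell by 1.04 (edgeR adjusted p = 0.00810) and Ifngr2 by 0.81 (adjusted p = 0.0196) on the log2 scale. Il10rb, the chain shared by the receptors of interferon lambda and interleukin 10, fell by 0.74 on the log2 scale (adjusted p = 0.00997 by edgeR). Ifngr1 was at 214, 225, 181 and 153 CPM with PBS and at 96.6, 115, 205, 109 and 139 CPM with IL-33, the third IL-33 library standing above the rest of its group. Its log2 change was -0.54 (edgeR adjusted p = 0.106), and its adjusted p without IL-33 replicate 3 was 0.0110. With scaling by library size alone, 0 of the 5 receptors passed, and the log2 changes were -0.92 for Ifnar1, -0.83 for Ifnar2, -0.69 for Ifngr2, -0.63 for Il10rb and -0.47 for Ifngr1.

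Signalling genes split. Of 14 tested, Stat2, Irf1, Irf2 and Pias1 fell and Irf8 rose, with a median log2 change of -0.22. That is 28.6% lower and 7.14% higher, against 11.6% and 13.7% of all genes tested. Stat2, which works with IRF9 downstream of the type I receptor, was at 30.3, 14.6, 11.9 and 26.4 CPM with PBS and at 9.77, 8.06, 14.2, 7.14 and 10.2 CPM with IL-33. Of the IL-33 libraries only replicate 3 exceeded the lowest PBS library. Stat2 fell by 1.08 on the log2 scale (adjusted p = 0.0387 by edgeR), with an adjusted p of 0.0736 to 0.119 without PBS replicate 1 or 4 or one of IL-33 replicates 1, 2, 4 and 5.

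Irf1, a transcription factor induced by interferon gamma, was at 177, 147, 143 and 123 CPM with PBS and at 73.2, 101, 99.8, 65.5 and 90.3 CPM with IL-33, without overlap. Irf1 fell by 0.78 (edgeR adjusted p = 0.00731) and Irf2, which often opposes it, by 0.87 (adjusted p = 0.00521) on the log2 scale. Pias1, an inhibitor of interferon signalling, fell by 1.10 on the log2 scale (adjusted p = 0.0171 by edgeR), and its adjusted p was 0.0539 without PBS replicate 2. Irf8 was at 10.4, 8.79, 2.73 and 5.05 CPM with PBS and at 14.7, 33.3, 12.5, 25.1 and 39.9 CPM with IL-33. Irf8 rose by 1.89 on the log2 scale (adjusted p = 0.0186 by edgeR), and its groups did not overlap.

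**Figure D5:**
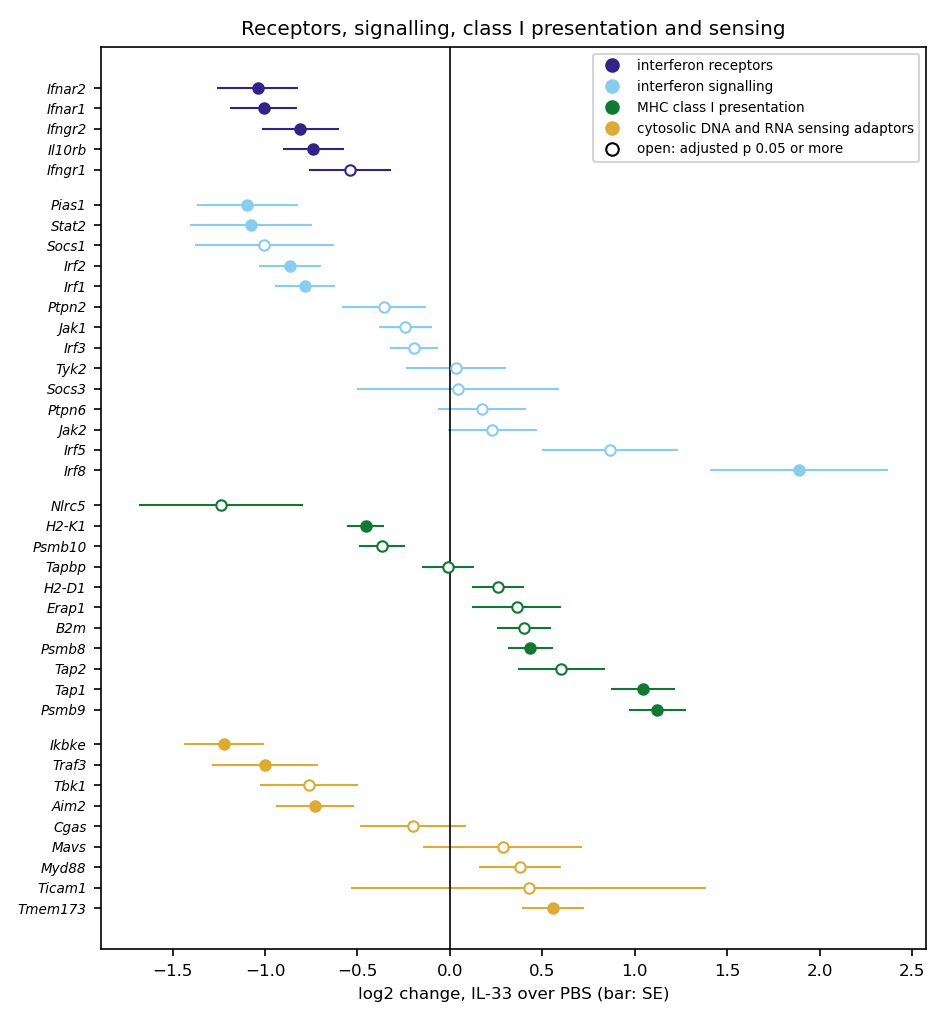
Log2 change with IL-33 over PBS (horizontal axis, with SE bars) of receptor, signalling, class I presentation and sensing genes; filled points have adjusted p below 0.05. The 5 receptor genes lie left of 0, whereas Irf8 (1.89), Psmb9 (1.12) and Tap1 (1.04) lie to the right.

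Of 52 other interferon-stimulated genes tested, 15 (28.8%) fell and 3 (5.77%) rose, against 11.6% and 13.7% of all genes tested. The 52 had a median log2 change of -0.54 and 40 negative changes. Those with the lowest adjusted p (edgeR) were Rnf213, a giant ubiquitin ligase (log2 change -1.63, adjusted p = 3.83e-04), Slfn8 (-2.88, 0.00150), Lgals3bp (1.28, 0.00227), the nuclear body protein Sp110 (-0.68, 0.00288) and the ubiquitin ligase Herc6 (-1.22, 0.00448). Slfn8 was at 97.8, 114, 42.3 and 49.0 CPM with PBS and at 5.63, 5.63, 17.6, 9.61 and 12.9 CPM with IL-33. Lgals3bp was at 111, 82.5, 169 and 141 CPM with PBS and at 297, 331, 233, 343 and 326 CPM with IL-33. Neither had overlapping groups. Members of one family could move in opposite directions: Ifitm2 rose by 1.56 (edgeR adjusted p = 0.0338) and Ifitm3 fell by 1.37 (adjusted p = 0.0204) on the log2 scale. These 2 transmembrane proteins were named after their values were seen.

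Interferon also induces genes of class I antigen presentation. Of 11 genes tested, Psmb8, Psmb9 and Tap1 rose and H2-K1 fell, with a median log2 change of 0.36 and 7 genes that did not pass. The shares called were 27.3% higher and 9.09% lower, against 13.7% and 11.6% of all genes tested. Psmb9, an immunoproteasome subunit, was at 66.1, 62.5, 97.7 and 65.4 CPM with PBS and at 138, 174, 147, 168 and 168 CPM with IL-33. Tap1, the peptide transporter encoded beside it, was at 73.3, 47.9, 66.6 and 79.5 CPM with PBS and at 117, 161, 126, 124 and 161 CPM with IL-33. All IL-33 libraries were above all PBS libraries for both genes. Psmb9 rose by 1.12 (edgeR adjusted p = 0.00101) and Tap1 by 1.04 (adjusted p = 0.00253) on the log2 scale. The pair overlap on opposite strands, so that without stranded counting their reads cannot be fully told apart.

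Psmb8 rose by 0.44 on the log2 scale (adjusted p = 0.0284 by edgeR), with an adjusted p of 0.0613 to 0.0795 without PBS replicate 1, 2 or 4 or one of IL-33 replicates 2, 4 and 5. H2-K1, a class I heavy chain, fell by 0.46 on the log2 scale (adjusted p = 0.00877 by edgeR). Psmb10, the remaining immunoproteasome subunit, had a log2 change of -0.37 (edgeR adjusted p = 0.0542) and passed without IL-33 replicate 3 (0.00988).

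Among 9 genes tested from the list of DNA and RNA sensors and their adaptors, Ikbke, Traf3 and Aim2 fell and Tmem173 rose, with a median log2 change of -0.20. The shares called were 33.3% lower and 11.1% higher, against 11.6% and 13.7% of all genes tested. Ikbke, a kinase that activates IRF3 and IRF7, was at 46.8, 60.1, 41.2 and 45.2 CPM with PBS and at 17.5, 21.9, 13.7, 24.7 and 25.8 CPM with IL-33, without overlap. Ikbke fell by 1.22 on the log2 scale (adjusted p = 0.00333 by edgeR). Tmem173, which encodes STING, rose by 0.56 on the log2 scale (adjusted p = 0.0379 by edgeR), and this call was lost without PBS replicate 1, 2 or 4 or one of IL-33 replicates 2, 3, 4 and 5 (adjusted p 0.0521 to 0.102). Traf3, an adaptor, fell by 1.00 on the log2 scale (adjusted p = 0.0295 by edgeR) but not without PBS replicate 1, 2 or 4 or one of IL-33 replicates 3, 4 and 5 (adjusted p 0.0517 to 0.0890). Aim2, a DNA sensor, fell by 0.73 on the log2 scale (adjusted p = 0.0305 by edgeR) but not without PBS replicate 1, 2 or 3 or one of IL-33 replicates 1, 2 and 3 (adjusted p 0.0505 to 0.0788). Tbk1, the kinase related to Ikbke, had a log2 change of -0.76 (edgeR adjusted p = 0.0610) and passed without IL-33 replicate 3 (0.0409).

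Transcript length moved with the changes over all genes tested. In 5 equal classes of genes from the shortest to the longest, the median log2 change was 0.40, 0.13, -0.06, -0.24 and -0.47. The members' medians in the same classes were -0.16 over 2 members, -0.80 over 11, -0.87 over 10, -1.25 over 10 and -1.003 over 6, below the median of all genes in every class. With the trend over length removed, 13 members were lower and 0 higher, and Irgm1 and Isg20 no longer passed while Isg15 did.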

How the data were processed

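Pancreatic ILC2 RNA (5 to 15 ng) was made into low-input libraries and sequenced as paired 150-nt reads, per the labels' protocols. The submitters' processing notes name STAR 2.7.7a, Salmon 1.6.0 and DESeq2, the quality and trimming tools FastQC 0.11.9 and Trimmomatic 0.39, Picard and the build GRCm38.p6, with no order or role for each. The authors deposited whole-number counts per Ensembl gene; the way reads were assigned to genes, and any use of strand, is not given in the sources used here. A further table deposited by the authors holds a normalized signal per gene, used in 1 alternative as log2(value + 1). Symbols, positions and exon lengths came from GENCODE M21 and promoter windows from RefSeq.

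The members and lists were chosen with earlier results of these data known. Counts of all 9 libraries were fitted with edgeR 4.0.16 in R 4.3.3 (two-sided quasi-likelihood test, robust, after TMM scaling and edgeR's filterByExpr at 10 counts), with Benjamini-Hochberg adjustment over the 14405 genes that passed and a threshold of 0.05. Mean ± SD refer to TMM-scaled CPM. In a library 3 counts, the most that a gene with a count of 0 may plausibly have, amount to between 0.133 and 0.286 CPM, for counting error only. The biological coefficient of variation was 0.56. On simulated data for this comparison (13907 genes), 15.5% of 97 genes with a 2-fold change and 54.8% of 93 with a 4-fold change were recovered, with 0 false calls. Most 2-fold changes were thus missed in the simulation. It changed a far smaller share of genes than the 25.2% that passed in the data. The adjustment depends on that share, so the percentages recovered need not hold for the data. No pair of libraries agreed within sampling noise.

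Library values are given for each member that passed and for the 3 members of each role with the highest level per kilobase. From each surrounding list the 5 genes with the smallest adjusted p are named, with the main receptors, STAT2 and IRF1, and a further signalling gene is not reported here; other genes were named after their values were seen, including those members that did not pass but whose library values are given. Alternatives were other scalings, filters and thresholds, limma 3.58.1, DESeq2 1.42.0, a replicate block, removal of acinar and endocrine genes, and leaving out libraries. Figures were drawn with matplotlib 3.10.9.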

Additional observations from a re-analysis of the deposited data

Results flagged for a closer look

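Single libraries that stood far from the rest of their group were looked for in 80 groups of values (40 members with both groups examined). Of these groups, 14 were flagged. A chance rate of about 1 in 20 holds only for independent values. Many members were highest in the same library, so the 14 cannot be set against that rate. In 8 of the 14 the library was IL-33 replicate 3, the highest of its group. These were Gbp2b at 2.14 CPM (next 0.487), Gbp3 at 14.7 (next 5.87), Gbp7 at 135 (next 70.7), Gbp8 at 34.0 (next 18.2), Gbp9 at 40.7 (next 18.6), Iigp1 at 3.48 (next 0.951), Tgtp1 at 55.2 (next 25.9) and Tgtp2 at 70.1 CPM (next 26.6). All 8 are GTPases. IL-33 replicate 1 was the highest of its group for Trim30a at 53.2 CPM (next 36.3) and for Oasl2 at 0.221 CPM, the only IL-33 library above 0 for that gene.

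Among PBS libraries, replicate 1 stood high for Gbp2 at 122 CPM (next 71.2). PBS replicate 3 stood high for Samd9l at 96.4 CPM (next 69.6) and Eif2ak2 at 30.2 CPM (next 9.99), and low for Irgm1 at 24.5 CPM (next 55.8).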

How the results depend on the processing

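Against 13 members lower and 1 higher, the counts lower and higher were 6 and 0 with scaling by library size alone, 6 and 0 with a replicate block, 4 and 0 at an adjusted p below 0.01, and 4 and 0 without IL-33 replicates 1, 2 and 3, which were high in beta-globin. In the same order, 13.7%, 10.1%, 12.4% and 9.06% of all genes tested were called in either direction, against 25.2% in the main fit. Fewer calls were thus made over all genes as well. None was higher with no filter on low counts, with limma voom or with the length trend removed. Leaving out each library in turn gave 10 to 17 lower (17 without IL-33 replicate 3), 0 to 1 higher and a median log2 change from -1.17 to -0.58, the last without PBS replicate 1. The count lower was 15 with DESeq2's size factors in edgeR, 16 with limma voom, 18 with DESeq2 and 12 of 38 with near-identical copies summed. Summing copies and removing the length trend were chosen after seeing the data. Deviations of same-numbered libraries had correlations of -0.030, -0.056, -0.030 and 0.067, within the range of differently numbered pairs (-0.183 to 0.185). No label says whether the numbers pair libraries, and correlations of this size cannot decide it. Under the block Gbp2, Gbp8, Ifi35, Ifi47, Irgm1, Isg20, Tgtp1 and Tgtp2 did not pass. Scaling by library size alone moved the median of all genes by 0.13 (log2), and 34 members still had negative changes. Of the 14 members that passed, 2 (Gvin1 and Samd9l) also passed at the 0.05 threshold under all 21 other settings. Over all named genes, 136 values lost a call, 45 gained one and 0 reversed, with 1152 unchanged in call. Where a call was lost the cause was not tested.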
